A study of Mus musculus with 9 samples.

Results

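Both adeno-associated virus (AAV) vectors of this mouse study were set together against saline, to find which gene expression changes an injection of either vector had in common in skeletal muscle. Wild-type mice of the FVB strain, 2 to 3 months old, were injected in the gastrocnemius of the calf, and RNA of that muscle was sequenced 7 weeks later. There were 3 libraries after saline, 3 after AAV-GFP, named for green fluorescent protein, and 3 after AAV-GFP-MBNL1∆, which by its name adds a form of the RNA-binding protein MBNL1. By the series title the protein serves as a decoy that binds the expanded CUG repeats toxic in myotonic dystrophy, but all animals here were wild-type. The 6 vector libraries and the 3 saline libraries are all 9 of the series. Of 50957 autosomal genes in the annotation, 17791 had enough counts to be tested (18514 of 55401 genes over all chromosomes), and each vector group had equal weight in the comparison. Vector serotype, promoter, dose and the animals' sex are not given in the labels, nor is it stated that each library came from its own animal, so p-values measure the spread between these libraries.

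AAV is a small virus with a single-stranded DNA genome, and vectors derived from it carry a transgene in place of the viral genes. Cells can sense the capsid or the vector genome through Toll-like receptors, and the capsid and a foreign transgene product can be presented to T cells and B cells. Interferons then switch on gene programmes in muscle and blood-derived cells. Type I interferon acts on the interferon-stimulated response element of antiviral genes, and interferon gamma, made by T cells and natural killer cells, acts on chemokines that attract lymphocytes, on antigen presentation by MHC molecules and on the guanylate-binding and immunity-related GTPases.

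The promoters of 4 genes described below hold the letters of this element. Each line gives the 250 bases before the RefSeq start of the gene (GRCm38.p6), 5′ to 3′ on the gene's strand, with each match to GAAANNGAAA in capitals; a match on the opposite strand reads as its reverse complement, and overlapping matches run together. Cxcl10 (chr5:92348890-92349139, minus strand) encodes a chemokine that attracts activated T cells, Gbp2 (chr3:142620413-142620662, plus strand) a guanylate-binding GTPase, and Isg15 (chr4:156200819-156201068, minus strand) and Ifit1 (chr19:34640639-34640888, plus strand) antiviral proteins.
Cxcl10: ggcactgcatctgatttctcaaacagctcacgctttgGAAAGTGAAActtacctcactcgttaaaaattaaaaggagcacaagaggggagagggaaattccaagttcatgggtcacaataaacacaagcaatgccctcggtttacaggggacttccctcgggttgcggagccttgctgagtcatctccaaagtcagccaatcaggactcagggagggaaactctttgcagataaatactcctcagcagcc
Gbp2: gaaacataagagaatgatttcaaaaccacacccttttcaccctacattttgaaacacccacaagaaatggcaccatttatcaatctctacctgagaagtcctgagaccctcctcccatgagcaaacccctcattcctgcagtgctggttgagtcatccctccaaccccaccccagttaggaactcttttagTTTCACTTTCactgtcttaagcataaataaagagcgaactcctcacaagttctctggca
Isg15: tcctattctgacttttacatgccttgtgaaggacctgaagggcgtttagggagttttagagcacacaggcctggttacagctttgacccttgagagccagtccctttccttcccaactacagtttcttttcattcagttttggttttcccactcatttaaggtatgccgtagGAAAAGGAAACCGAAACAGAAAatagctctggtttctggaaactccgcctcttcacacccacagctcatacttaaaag
Ifit1: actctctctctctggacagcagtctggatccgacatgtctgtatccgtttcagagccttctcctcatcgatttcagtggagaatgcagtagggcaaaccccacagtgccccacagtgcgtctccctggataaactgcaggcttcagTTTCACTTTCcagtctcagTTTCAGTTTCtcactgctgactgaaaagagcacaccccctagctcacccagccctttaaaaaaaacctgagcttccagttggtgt
The match began 213 bases before the start in Cxcl10 and 59 bases before it in Gbp2. Isg15 held 3 overlapping matches, at 78, 72 and 66 bases, and Ifit1 held 2, at 104 and 85 bases. These 4 windows are shown because they hold a match; the windows of Cxcl9 and Lck, whose values are also given by library, held 0 matches. Searched on both strands, the motif was in such a window of 3.41% of the autosomal genes tested that the RefSeq table holds (399 of 11703) and of 6.37% of the genes that stood above saline in every vector library (48 of 754). It was in 10 of 24 interferon-stimulated genes (41.7%), in 8 of 8 interferon-induced GTPases, in 3 of 19 MHC class I genes (15.8%), in 1 of 9 MHC class II genes (11.1%) and in 0 of 16 T-cell genes. Chemokines and genes of B cells and plasma cells had it in 2 of 14 each (14.3%). Cytotoxic and natural killer genes had it in 2 of 16 (12.5%) and monocyte and macrophage genes in 2 of 22 (9.09%). A match describes the letters of the window and is no measured binding site.

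The libraries held 44603618 to 76970849 counts, and the biological coefficient of variation was 0.232. AAV-GFP 2 stood apart from the other 8 libraries, where the 10 most abundant genes took 17.7% of counts, compared with 23.6% to 27.7% elsewhere, and 9.68% mitochondrial counts against 13.3% to 15.4%. On the first principal component (60.4% of the variance) it lay at 135.7 and AAV-GFP 1 at 67.8, while AAV-GFP 3 lay at −19.1, the 3 AAV-GFP-MBNL1∆ libraries between −18.7 and 15.9 and saline between −70.7 and −58. Transcripts of the X-inactivation gene Xist were at 105 to 136 CPM (TMM-scaled counts relative to library size) in saline and AAV-GFP and at 0.0182 to 0.0902 CPM in AAV-GFP-MBNL1∆, whereas Y-linked Eif2s3y was at 50.5 to 60.4 CPM there, at 1.11 CPM in AAV-GFP 1 and at 0 counts in saline. A change carried by AAV-GFP-MBNL1∆ alone therefore cannot be told apart from this difference in sex-linked expression. The same holds for every difference between the vectors given below, also where AAV-GFP is the higher. Mbnl1 itself was at 540 ± 83.2 CPM in saline, 436 ± 71.2 in AAV-GFP and 642 ± 68.1 in AAV-GFP-MBNL1∆ (mean ± SD, n = 3 each), and the gene counts do not separate vector transcripts from the endogenous ones.

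In edgeR's quasi-likelihood test of either vector against saline, 54 autosomal genes were higher and 45 lower at an adjusted p under 0.05 (Benjamini-Hochberg over all 18514 genes), or 0.304% and 0.253% of the 17791. These calls were for the most part carried by AAV-GFP-MBNL1∆, and 98 of the 99 also differed between the vectors in the test of that difference, which called 10.9% of autosomal genes higher and 10.3% lower in AAV-GFP-MBNL1∆ than in AAV-GFP. Among the genes called higher, the median log2 fold change against saline was 0.23 in AAV-GFP and 2.71 in AAV-GFP-MBNL1∆, and among those called lower −0.30 and −1.55. Only 6 of the 54 stood higher in AAV-GFP than in AAV-GFP-MBNL1∆, namely Cxcl10, Cd7, Ubash3a, Il12b, Gm4841 and F830016B08Rik. Both vector groups share the saline libraries, so their 2 fold changes against saline are given side by side and not correlated. When the larger p of the 2 vectors was taken, which asks for a change in each, 0 genes were called higher and 0 lower. With 1 mean for all 6 vector libraries it was 0 and 0 too, so a call here does not show a change in both vectors.

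**Figure D1:**
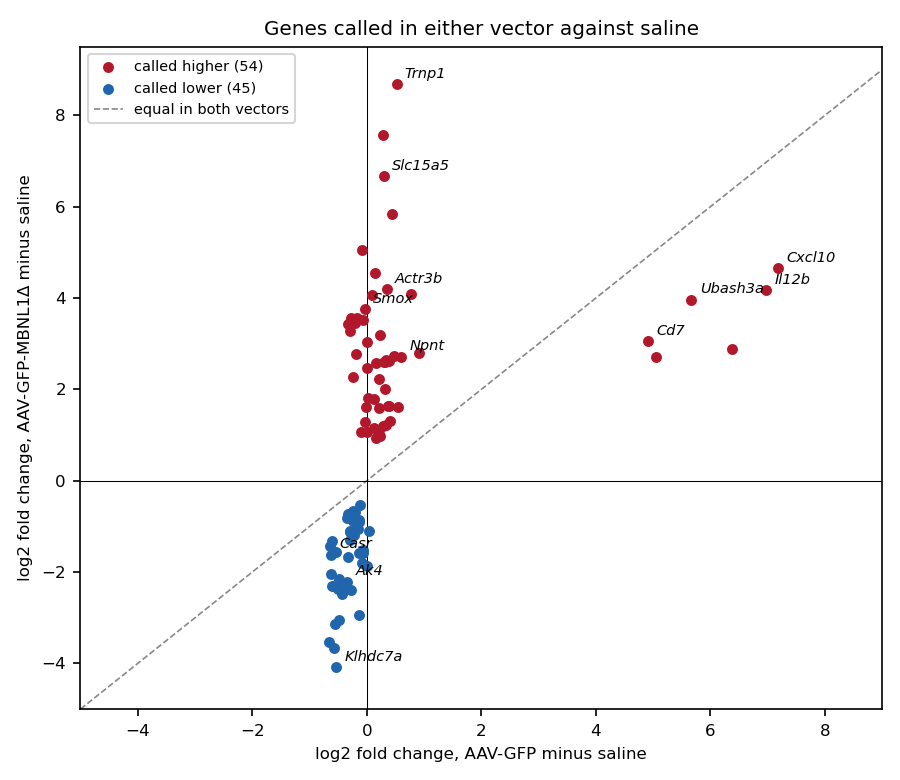
Each point is 1 of the 99 autosomal genes called in either vector against saline, with its log2 fold change against saline in AAV-GFP (horizontal axis) and in AAV-GFP-MBNL1∆ (vertical axis), and the dashed line marks equal values. Of the 54 called higher, 48 lie above the line, and the 6 below it are immune genes; the 45 called lower all lie on the side of AAV-GFP-MBNL1∆.

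A description that needs no call counts the genes whose 6 vector libraries all stood above, or all below, the 3 saline libraries. There were 1084 above (6.09% of autosomal genes tested) and 680 below (3.82%), and these percentages are the background for every such count given here. The 1084 were further from saline in AAV-GFP (median log2 fold change 2.07) than in AAV-GFP-MBNL1∆ (0.81), and AAV-GFP 2 was the highest library in 936 of them (86.3%). The difference between the vectors was called lower in AAV-GFP-MBNL1∆ for 119 of the 1084 and higher for 15. The 680 lay at a median of −0.34 in AAV-GFP and −0.41 in AAV-GFP-MBNL1∆, with 69 called lower in AAV-GFP-MBNL1∆ than in AAV-GFP. Genes nearly silent in saline reach the tested set only if they are high with a vector, so the counts were repeated over the 16207 genes that reach 0.15 CPM in each saline library, of which 821 stood above (5.07%) and 679 below (4.19%). The calls and the non-overlapping genes were largely separate, with 14 of the 54 and 20 of the 45 in both. Their balance was not stable: there were 984 above and 1075 below without AAV-GFP 2, and 919 above and 839 below with upper-quartile scaling.

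Immune lists held many genes that stood above saline in every vector library, while most interferon-stimulated and MHC class I genes did not. Over 19 immune lists pooled, 171 of 359 tested members lay above saline in all 6 vector libraries (47.6%, against 6.09%) and 0 lay below, and of the 252 members that also pass the count minimum in saline 87 did (34.5%, against 5.07%). Few of them passed the test across all genes, and the vector libraries were widely spread, with AAV-GFP 2 high and AAV-GFP 3 and AAV-GFP-MBNL1∆ 3 low. At an unadjusted p under 0.05, 11.7% of autosomal genes tested were higher and 9.23% lower; DESeq2 called 6.68% and 2.99% and limma-voom 0.264% and 0.197%, and the counts by these rules given per list are read against them. In bulk RNA, more cells of a type and more RNA per cell cannot be told apart.

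Chemokines that call lymphocytes into tissue gave 1 of the calls. Cxcl10 (chr5:92346638-92348889), a ligand of the receptor CXCR3 on activated T cells, was at 0.115, 0.151 and 0.078 CPM in saline 1 to 3, at 16.7, 30.5 and 3.32 in AAV-GFP 1 to 3 and at 3.61, 3.89 and 1.24 in AAV-GFP-MBNL1∆ 1 to 3. Every vector library stood above every saline library, and the gene was called, at 5.92 on the log2 scale (SE 0.92, edgeR adjusted p = 0.039). The rise was 7.19 in AAV-GFP and 4.65 in AAV-GFP-MBNL1∆, and this difference was itself called (−2.54, adjusted p = 0.0439). Cxcl9 (chr5:92321347-92328079), the neighbouring gene for another CXCR3 ligand, was at 0.534, 0.121 and 0.182 CPM in saline, 88.2, 296 and 14.2 in AAV-GFP and 19, 20.1 and 6.1 in AAV-GFP-MBNL1∆. Its groups did not overlap either, but it narrowly missed the threshold (7.32, SE 1.27, adjusted p = 0.0533). Ccl5, which attracts T cells, monocytes and natural killer cells, was at 0.0151 to 0.078 CPM in saline, 1.28 to 29.7 in AAV-GFP and 1.03 to 2.78 in AAV-GFP-MBNL1∆ (adjusted p = 0.0685). Cxcl13, which draws B cells into follicles, was at 0.325 to 0.621 CPM in saline, 2.35 to 40.4 in AAV-GFP and 3.09 to 11.4 in AAV-GFP-MBNL1∆ (adjusted p = 0.0751). Of 22 chemokines tested 13 lay above saline (6 of the 13 that pass the minimum in saline) and 1, Cxcl10, was called. The medians were 4.28 in AAV-GFP and 1.35 in AAV-GFP-MBNL1∆ over the 22, but 1.53 and 0.83 over the 13 that pass. Of the 22, 9 were called lower and 2 higher in AAV-GFP-MBNL1∆ than in AAV-GFP.

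**Figure D2:**
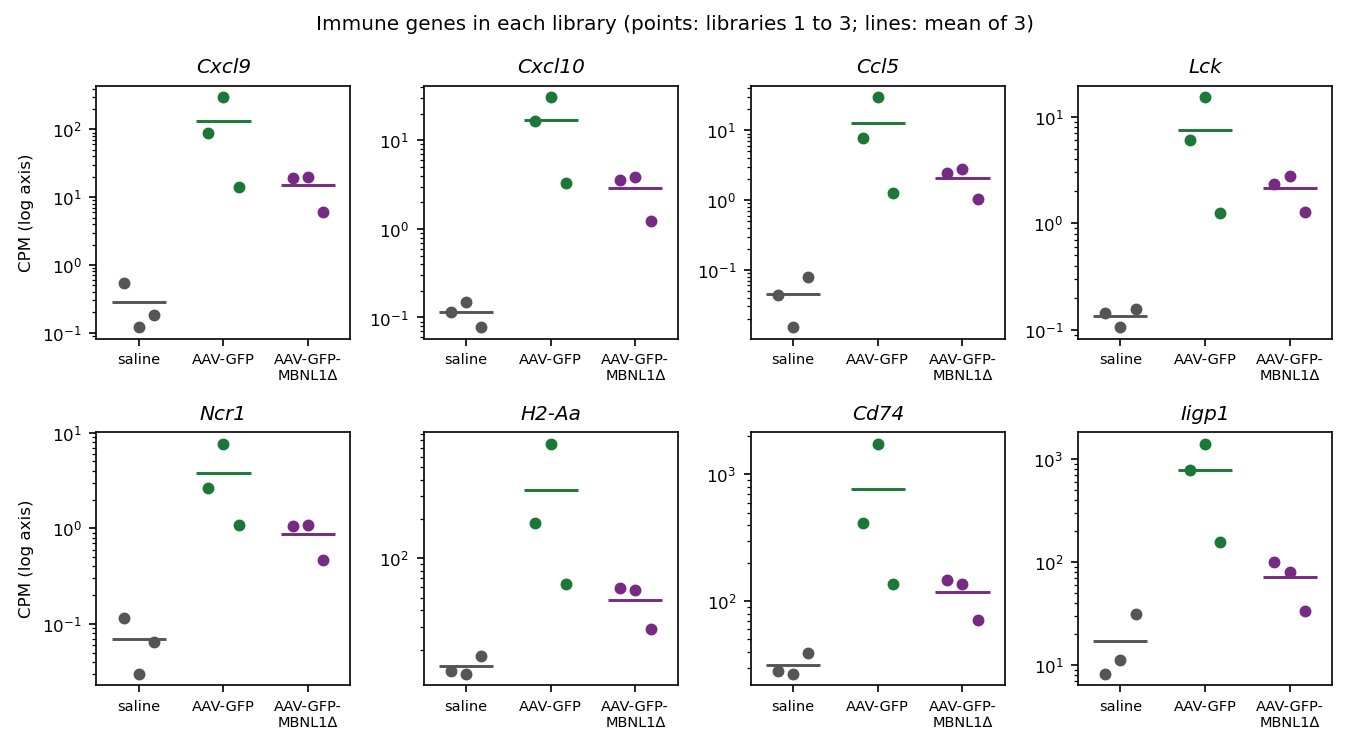
Level in CPM (log axis) of 8 immune genes in each library, grouped as saline, AAV-GFP and AAV-GFP-MBNL1∆, with points for libraries 1 to 3 and a line at the group mean. For every gene drawn the 6 vector libraries lie above the 3 saline libraries, AAV-GFP 2 is the highest library and AAV-GFP is more spread than AAV-GFP-MBNL1∆.

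Most tested T-cell genes of the list stood above saline in every vector library, but only 4 of the 9 that pass the minimum in saline did. The summed level of the list was 28.7 to 35.9 CPM in saline, 47.4 to 232 in AAV-GFP and 43.6 to 66.5 in AAV-GFP-MBNL1∆. Lck (chr4:129548344-129573641), a kinase at the first step of T-cell receptor signalling, was at 0.144, 0.106 and 0.156 CPM in saline, 6.02, 15.2 and 1.26 in AAV-GFP and 2.36, 2.8 and 1.27 in AAV-GFP-MBNL1∆. Saline was lowest throughout and the low library of each vector group stood at nearly the same level; the fold change missed the threshold (4.86, SE 0.86, adjusted p = 0.0557). Ubash3a (chr17:31207873-31246892), which dampens that signalling, was called (4.82, SE 0.80, adjusted p = 0.0498), with 0.0303 to 0.0433 CPM in saline, 0.576 to 3.75 in AAV-GFP and 0.285 to 0.855 in AAV-GFP-MBNL1∆. It is the 1 call of the 99 for which a difference between the vectors was not called (−1.70, adjusted p = 0.08). Cd7 (chr11:121036747-121039418), a surface protein of T cells and natural killer cells, was called too, at 0.026 to 0.0454 CPM in saline, 0.421 to 1.91 in AAV-GFP and 0.165 to 0.364 in AAV-GFP-MBNL1∆ (3.98, SE 0.67, adjusted p = 0.0459). Cd3e, a chain of the T-cell receptor complex, and the helper coreceptor Cd4 lay above saline in every vector library with adjusted p of 0.0605 and 0.0729. Cd8a, the coreceptor of cytotoxic T cells, had 0 counts in saline and 0.199 to 6.59 CPM in AAV-GFP and 0.39 to 1.38 in AAV-GFP-MBNL1∆, which puts the group means at least 202-fold and 61.3-fold above a floor of 3 counts over the saline group. Of 28 T-cell genes tested 22 lay above saline and 1 was called, and 1 was called lower in AAV-GFP-MBNL1∆ than in AAV-GFP. List medians were 4.47 in AAV-GFP and 2.89 in AAV-GFP-MBNL1∆. Over the 9 that pass the minimum in saline they were 2.05 and 1.28. The other members could be tested only because they were high with a vector. T-cell receptor gene segments lay above saline in 6 of 7, a count not repeated over those that pass the minimum in saline.

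Natural killer and cytotoxic genes were likewise lowest in saline. Ncr1 (chr7:4337724-4345164), through which natural killer cells are activated, was at 0.115, 0.0303 and 0.065 CPM in saline, 2.64, 7.62 and 1.08 in AAV-GFP and 1.05, 1.09 and 0.464 in AAV-GFP-MBNL1∆ (4.65, SE 0.82, adjusted p = 0.0552). The highest library was AAV-GFP 2, and the groups did not overlap. Gzmb, a protease of cytotoxic granules, was at 0.0151 to 0.0289 CPM in saline, 0.421 to 8.2 in AAV-GFP and 0.12 to 0.587 in AAV-GFP-MBNL1∆ (adjusted p = 0.0893). Nkg7, of the same granules, missed the threshold at an adjusted p of 0.0688, and the pore-forming Prf1 at 0.0936. Ifng, interferon gamma itself, was at 0 to 0.0289 CPM in saline, 0.111 to 1.82 in AAV-GFP and 0.0752 to 0.236 in AAV-GFP-MBNL1∆ (adjusted p = 0.125). Of 19 tested genes of the list 16 lay above saline and 0 were called by edgeR, though 18 had an unadjusted p under 0.05; DESeq2 called 18 and limma-voom 0. Only 1 of the 19 passes the minimum in saline, so the others could be tested only because they were high with a vector. Il2rb, the chain by which T cells and natural killer cells read interleukin 2 and interleukin 15, was at 0.0606 to 0.217 CPM in saline, 2.01 to 26 in AAV-GFP and 1.54 to 3.61 in AAV-GFP-MBNL1∆ (5.61, adjusted p = 0.056). Il12b, the interleukin 12 chain that pushes T cells towards interferon gamma, was called (adjusted p = 0.0423) with 1 count in the 3 saline libraries, 0.288 to 1.4 CPM in AAV-GFP and 0.0899 to 0.135 in AAV-GFP-MBNL1∆. Receptors for chemokines and cytokines lay above saline in 18 of 24 (8 of the 13 that pass in saline), with 0 called, 20 at an unadjusted p under 0.05, 20 called by DESeq2 and 0 by limma-voom. Checkpoint genes lay above in 6 of 12 (2 of the 7 that pass in saline), among them Pdcd1, the receptor PD-1, at 0 to 0.0144 CPM in saline, 0.398 to 7.45 in AAV-GFP and 0.255 to 1.09 in AAV-GFP-MBNL1∆ (adjusted p = 0.0745).

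MHC class II genes, which present extracellular antigen to helper T cells, mostly stood above saline in every vector library and mostly pass the count minimum in saline. H2-Aa (chr17:34282744-34287823), an alpha chain, was at 13.7, 13.1 and 17.7 CPM in saline, 187, 749 and 63.2 in AAV-GFP and 58.8, 57.2 and 28.7 in AAV-GFP-MBNL1∆. All 6 vector libraries stood above saline, with AAV-GFP 2 far above the rest (log2 fold change 3.09, SE 0.76, adjusted p = 0.102; 4.49 in AAV-GFP and 1.70 in AAV-GFP-MBNL1∆, a called difference at adjusted p = 0.0421). Cd74, the invariant chain that escorts class II molecules, was at 26.9 to 38.8 CPM in saline, 137 to 1738 in AAV-GFP and 70.8 to 146 in AAV-GFP-MBNL1∆ (adjusted p = 0.0985). Ciita, the transactivator on which class II genes depend, was at 0.757 to 1.13, 4.67 to 73.4 and 2.38 to 6.68 CPM in the same order (adjusted p = 0.0953). Of 12 genes of the list 11 lay above saline, all 11 of them among those that pass the minimum in saline, and their summed level was 73.2 to 97.4 CPM in saline, 315 to 4081 in AAV-GFP and 169 to 337 in AAV-GFP-MBNL1∆. None was called by edgeR, with 12 at an unadjusted p under 0.05; DESeq2 called 11 and limma-voom 0.

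Most macrophage genes stood above saline in every vector library. Of 29 genes of monocytes and macrophages 21 lay above saline (18 of the 26 that pass in saline), with medians of 3.23 in AAV-GFP and 0.89 in AAV-GFP-MBNL1∆, 10 called lower in AAV-GFP-MBNL1∆ than in AAV-GFP, and 0 called in either vector against saline (22 at an unadjusted p under 0.05, 19 by DESeq2, 0 by limma-voom). Lyz2, the lysozyme of macrophages and neutrophils, was at 31.4 to 39.5 CPM in saline, 88.5 to 875 in AAV-GFP and 64.2 to 112 in AAV-GFP-MBNL1∆ (adjusted p = 0.131). Granulocyte genes lay above in 3 of 10 (1 of the 6 that pass in saline) and dendritic cell genes in 6 of 14 (4 of 12), among them Itgax, the integrin CD11c, at 0.454 to 0.635, 2.86 to 20.4 and 1.08 to 2.2 CPM (adjusted p = 0.0825). Of 27 tested genes of B cells and plasma cells 16 lay above saline and 1 was called, but of the 9 that pass the minimum in saline 2 lay above (22.2%). Jchain, which joins the units of secreted IgM and IgA, was at 0.419, 0.212 and 0.585 CPM in saline, 225, 870 and 2.08 in AAV-GFP and 90.6, 43.3 and 29.5 in AAV-GFP-MBNL1∆ (8.42, SE 1.87, adjusted p = 0.0875). AAV-GFP 3 was closest to saline here, and the other 5 vector libraries lay far above both. The called gene was Ighm, the heavy chain of IgM, and it did not follow this order: it was at 88.3 to 158 CPM in saline and 155 to 190 in AAV-GFP but at 707, 904 and 864 in AAV-GFP-MBNL1∆ (1.46, SE 0.21, adjusted p = 0.0251). Ighg2c, an IgG heavy chain, was at 0.0151 to 0.273 CPM in saline, 0.708 to 668 in AAV-GFP and 18.3 to 95.7 in AAV-GFP-MBNL1∆ (adjusted p = 0.0974). Over the whole annotation 25 of 76 immunoglobulin segments tested lay above saline (32.9%) and 0 below. Segments nearly silent in saline were tested only if high with a vector, and this count was not repeated over those that pass in saline. Reads of these segments can be shared with related ones, so single values are uncertain.

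Markers of lymph node tissue moved with these lists in part. Of 14 listed genes 8 were tested, and 6 lay above saline; the summed level of the list was 0.806 to 1.1 CPM in saline, 4.25 to 62.8 in AAV-GFP and 4.4 to 16.7 in AAV-GFP-MBNL1∆. Of those 8, 1 passes the minimum in saline. Among markers that were not tested, Ccl21a and Ccl19 were listed at 0 and Glycam1, Madcam1 and Chst4 at 0 or 1 count in every library. Genes that muscle expresses, such as Cox4i1, Map1lc3b and Cpt1b, are also listed at 0 counts in all 9 libraries, so a 0 throughout the files does not show that a gene is absent. Much of the summed level came from Cxcl13, at 2.35 to 40.4 CPM in AAV-GFP and 3.09 to 11.4 in AAV-GFP-MBNL1∆. Other tested members, such as Ccr7 and Cxcr5, are also expressed by B cells or T cells. The cell source of these transcripts was not tested.

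Complement genes, which mark and lyse targets, lay above saline in 11 of 20 (10 of the 19 that pass in saline). C3, the central component, was at 65 to 71.2 CPM in saline, 125 to 661 in AAV-GFP and 140 to 272 in AAV-GFP-MBNL1∆ (adjusted p = 0.11), and C4b of the classical pathway at 7.82 to 11.4, 21.1 to 157 and 19.4 to 58.5 CPM (adjusted p = 0.11). All 6 vector libraries lay above saline for both genes. The 1 member called, C7 of the membrane attack complex, was at 0.787 to 1.02 CPM in saline, 0.81 to 1.3 in AAV-GFP and 14.9 to 30.9 in AAV-GFP-MBNL1∆ (2.35, SE 0.27, adjusted p = 0.0147), and so belongs to the latter vector's libraries.

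**Figure D3:**
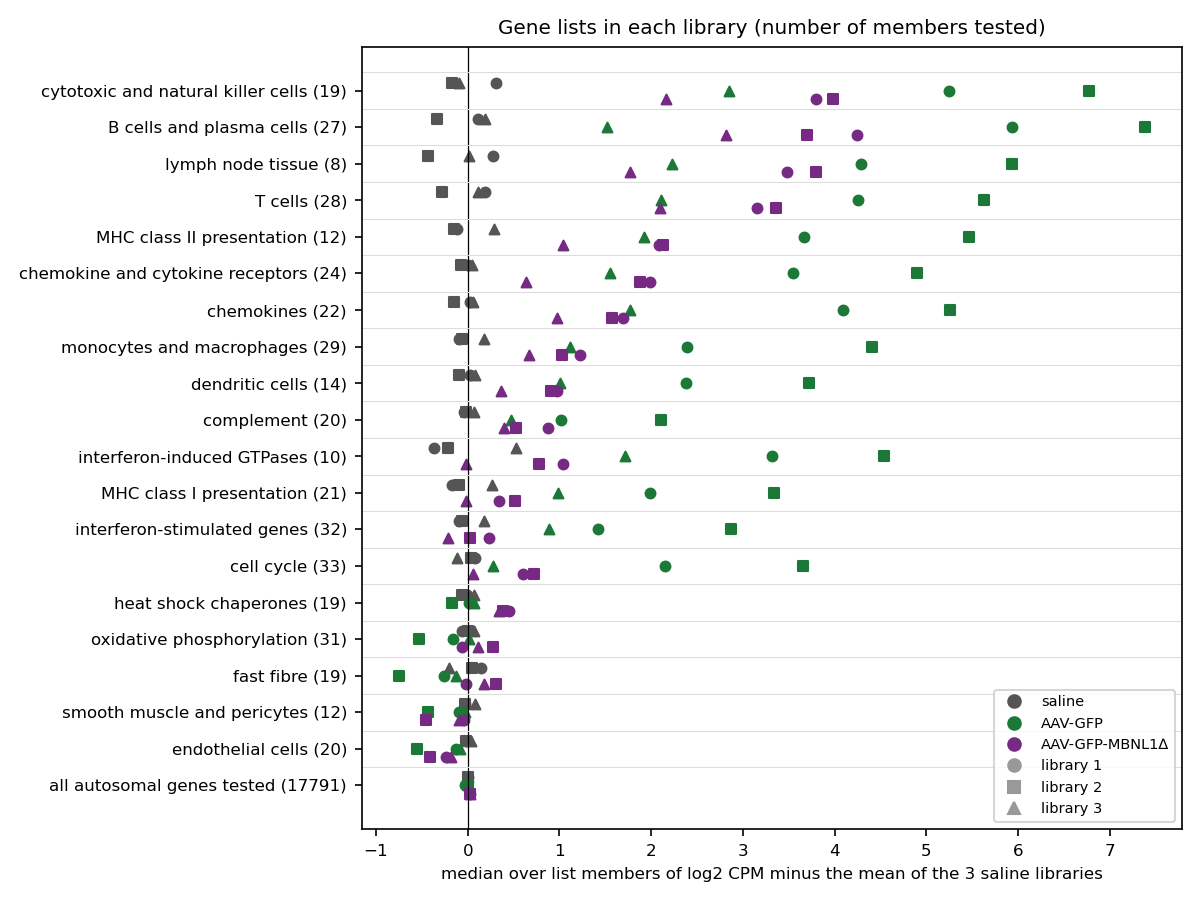
Median over the members of 20 lists of log2 CPM minus the mean of the 3 saline libraries (horizontal axis), for each library, with colours for the 3 groups and marker shapes for libraries 1 to 3. Lymphocyte, MHC class II and chemokine lists lie above saline in all 6 vector libraries, whereas the interferon-stimulated list has a median log2 fold change of 0.03 in AAV-GFP-MBNL1∆. The lists are not selected alike, since members that fail the count minimum in saline were tested only if high with a vector. It is passed by 9 of 28 T-cell, 1 of 19 cytotoxic and natural killer and 9 of 27 B-cell genes. Of chemokines 13 of 22 pass it, of MHC class II genes 11 of 12 and of interferon-stimulated genes 30 of 32.

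Most interferon-stimulated antiviral genes differed between the vectors, which cannot be told apart from the difference in sex-linked expression. Isg15, a ubiquitin-like antiviral protein whose promoter carries 3 of the matches shown above, was at 0.592, 0.5 and 0.676 CPM in saline, 1.9, 6 and 1.57 in AAV-GFP and 0.451, 0.473 and 0.39 in AAV-GFP-MBNL1∆. The AAV-GFP libraries were all above saline and the AAV-GFP-MBNL1∆ libraries all below it, and the difference between the vectors was called (−2.85, adjusted p = 0.00925). Ifit1, which binds foreign RNA caps, was at 1.11 to 1.55 CPM in saline, 3.72 to 13 in AAV-GFP and 1.51 to 2.98 in AAV-GFP-MBNL1∆, and the difference was −1.68 (adjusted p = 0.0367). Of 32 listed genes 4 (Ifi35, Oas3, Samhd1 and Usp18) lay above saline in all 6 vector libraries (12.5%), and 26 were called lower in AAV-GFP-MBNL1∆ than in AAV-GFP. The list median was 1.91 in AAV-GFP and 0.03 in AAV-GFP-MBNL1∆. In either vector against saline 0 were called by edgeR, 17 had an unadjusted p under 0.05, DESeq2 called 15 and limma-voom 0.

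Interferon-induced GTPases and MHC class I genes lay between these patterns. Gbp2 was at 12.4, 16 and 23.1 CPM in saline, 106, 276 and 43.7 in AAV-GFP and 29.4, 26.4 and 13.9 in AAV-GFP-MBNL1∆, so that AAV-GFP-MBNL1∆ 3 fell inside the saline range (difference between the vectors −2.61, adjusted p = 0.0278). Iigp1, a GTPase that attacks the vacuoles of intracellular pathogens, was at 8.33 to 31.8 CPM in saline, 158 to 1402 in AAV-GFP and 33.6 to 100 in AAV-GFP-MBNL1∆ (3.78, adjusted p = 0.0875; difference −3.45, adjusted p = 0.0302). All 10 tested GTPases of the list were called lower in AAV-GFP-MBNL1∆ than in AAV-GFP, and 2, Gbp2b and Iigp1, lay above saline in all 6 vector libraries. Gm4841 and F830016B08Rik, which RefSeq also lists as Ifgga3 and Ifgga4 of the same family, were both called. Gm4841 was at 10.2 to 19.3 CPM in saline, 228 to 2087 in AAV-GFP and 60.9 to 157 in AAV-GFP-MBNL1∆ (4.64, SE 0.77, adjusted p = 0.0498), and F830016B08Rik at 6.12 to 12.3, 69.5 to 484 and 40.3 to 76 CPM (3.88, SE 0.65, adjusted p = 0.0498). Members of this family have related sequences, so reads may be shared among them. The class I chain H2-K1 was at 35.8 to 49.5 CPM in saline, 89.1 to 735 in AAV-GFP and 42.3 to 69.5 in AAV-GFP-MBNL1∆ (difference −2.57, adjusted p = 0.0334). B2m, the light chain of class I, was at 96.3 to 126, 224 to 1457 and 103 to 178 CPM (difference −2.31, adjusted p = 0.0328). Of 21 class I presentation genes 3 (Calr, H2-T22 and Tapbpl) lay above saline in every vector library and 17 were called lower in AAV-GFP-MBNL1∆ than in AAV-GFP. Sensors of nucleic acids lay above in 6 of 28 (5 of the 26 that pass in saline), among them Tlr9, the Toll-like receptor for unmethylated CpG DNA, at 0.231 to 0.442 CPM in saline, 0.642 to 7.5 in AAV-GFP and 0.539 to 1.04 in AAV-GFP-MBNL1∆ (adjusted p = 0.137). The proliferation marker Mki67 overlapped with saline, at 0.858 to 1.31 CPM there, 1.7 to 38.4 in AAV-GFP and 0.989 to 2.32 in AAV-GFP-MBNL1∆, and cell cycle genes lay above in 3 of 33.

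**Figure D4:**
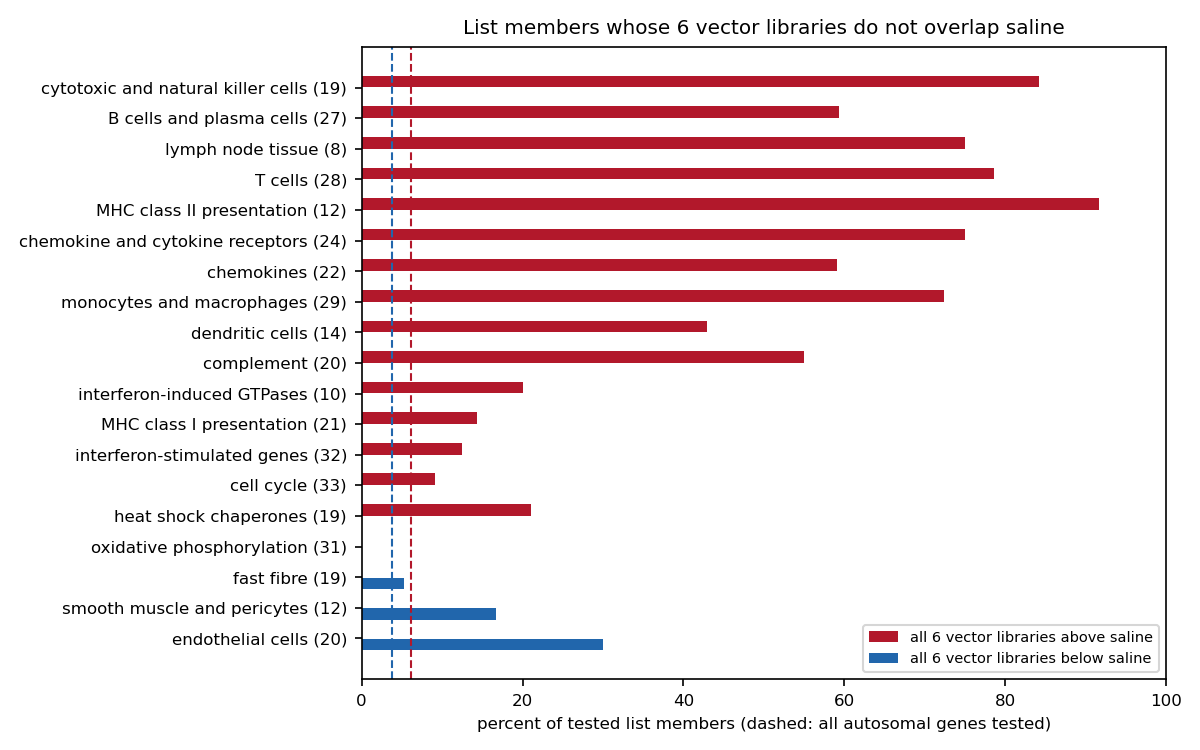
Percent of the tested members of each list whose 6 vector libraries all lie above (one colour) or all below (the other) the 3 saline libraries, with dashed lines at the shares over all autosomal genes tested, 6.09% and 3.82%. Immune lists exceed the upper background, at up to 91.7% for MHC class II, and the endothelial list has 30% below and 0 above. The bars include members that were tested only because they were high with a vector. Over members that pass the count minimum in saline, 44.4% of T-cell genes, 46.2% of chemokines and 22.2% of B-cell genes lay above. For MHC class II it was 100%, against 5.07% of all such genes.

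The 48 other genes called higher were nearer to saline in AAV-GFP, with log2 fold changes from −0.33 to 0.92 there and from 0.93 to 8.69 in AAV-GFP-MBNL1∆. Actr3b (chr5:25759997-25850688), a subunit of the actin-branching Arp2/3 complex, was at 1.54, 1.8 and 1.61 CPM in saline, 2.46, 2.17 and 1.66 in AAV-GFP and 24.5, 32.3 and 34.6 in AAV-GFP-MBNL1∆ (2.28, SE 0.17, adjusted p = 0.00243). AAV-GFP 3 fell inside the saline range, and the log2 fold change was 0.35 in AAV-GFP and 4.20 in AAV-GFP-MBNL1∆. Actr3b was the only 1 of the 99 that kept its call when any single library of the 9 was left out (adjusted p from 0.000331 to 0.0451). Polyamine genes gave 4 of the calls, with Odc1, which makes putrescine, at 45.7 to 48.7, 47.8 to 75.1 and 247 to 329 CPM (1.49, adjusted p = 0.00991), and Smox, which oxidises spermine, at 44.9 to 61.8, 46 to 61.4 and 583 to 855 CPM (1.86, adjusted p = 0.00936). Amd1 and Amd2, of the decarboxylase for S-adenosylmethionine, were called at an adjusted p of 0.0197 each, and these copies can share reads. Trnp1, a nuclear protein of neural progenitors, had the greatest difference between the vectors among them, at 0.0303 to 0.101 CPM in saline, 0.0443 to 0.222 in AAV-GFP and 24.9 to 38.8 in AAV-GFP-MBNL1∆ (8.17, adjusted p = 0.000186).

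Few of these genes had a visible part in AAV-GFP. Npnt (chr3:132881745-132950291), the matrix protein nephronectin that binds integrins, was at 3.75, 4.04 and 4.28 CPM in saline, 5.53, 7.89 and 4.83 in AAV-GFP and 23.5, 22.7 and 33.1 in AAV-GFP-MBNL1∆. The groups were ordered without overlap (1.66, SE 0.19, adjusted p = 0.0143; 0.60 in AAV-GFP and 2.72 in AAV-GFP-MBNL1∆). Mgst1, a membrane glutathione transferase, was at 13.3 to 15.7, 16.9 to 27.1 and 41.1 to 45.6 CPM (1.07, adjusted p = 0.0257). Serpinb6a, an intracellular protease inhibitor, was at 140 to 155, 159 to 256 and 452 to 470 CPM (1.01, adjusted p = 0.0362), and Bace1, a membrane aspartyl protease, at 31.1 to 32.4, 33.2 to 45.4 and 66.1 to 79.6 CPM (0.74, adjusted p = 0.0253). For the 3, AAV-GFP 2 was the highest AAV-GFP library and the AAV-GFP mean lay nearer to saline. The steroid receptor coactivator Sra1 and the heat shock cochaperone Dnajb1 were also called and above saline in every vector library, with log2 fold changes of 0.65 (adjusted p = 0.00778) and 0.78 (adjusted p = 0.0498).

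By group fold change, genes called lower were mostly ordered as saline, AAV-GFP, AAV-GFP-MBNL1∆. Library by library, 20 of the 45 lay below saline in all vector libraries and 25 overlapped with it. Casr (chr16:36493696-36562141), the calcium-sensing receptor, stood first among the called, protein-coding genes without overlap by the smaller of its 2 changes, at 11.6, 13.6 and 8.78 CPM in saline, 7.18, 6.95 and 7.79 in AAV-GFP and 3.37, 3.33 and 4.36 in AAV-GFP-MBNL1∆. Each group was below the one before it (−1.12, SE 0.15, adjusted p = 0.0179; −0.63 and −1.62, a called difference at adjusted p = 0.00929). Ak4 (chr4:101419277-101466995), a mitochondrial adenylate kinase, was at 22.3 to 25.1, 13.6 to 21.4 and 4.89 to 5.29 CPM (−1.28, SE 0.13, adjusted p = 0.00991). Mycn, a transcription factor of the MYC family, was at 2 to 2.83, 1.15 to 1.82 and 0.436 to 0.689 CPM (−1.34, adjusted p = 0.0362), and Neu2, a cytosolic sialidase of muscle, at 5.96 to 8.56, 4.06 to 5.78 and 1.14 to 1.71 CPM (−1.44, adjusted p = 0.017). Fibrillar collagen Col24a1 was at 18.9 to 22.5, 9.93 to 18.2 and 3.99 to 4.97 CPM (−1.31, adjusted p = 0.0178). A smaller fall with a share in AAV-GFP was that of Dgke, a diacylglycerol kinase (−0.33 in AAV-GFP and −0.73 in AAV-GFP-MBNL1∆). Il15, a cytokine made by muscle fibres, was called lower (−0.79, adjusted p = 0.0203) but at 14.7 to 18.2 CPM in AAV-GFP it overlapped with the 16.4 to 17.2 CPM of saline, against 5.08 to 6.86 in AAV-GFP-MBNL1∆.

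**Figure D5:**
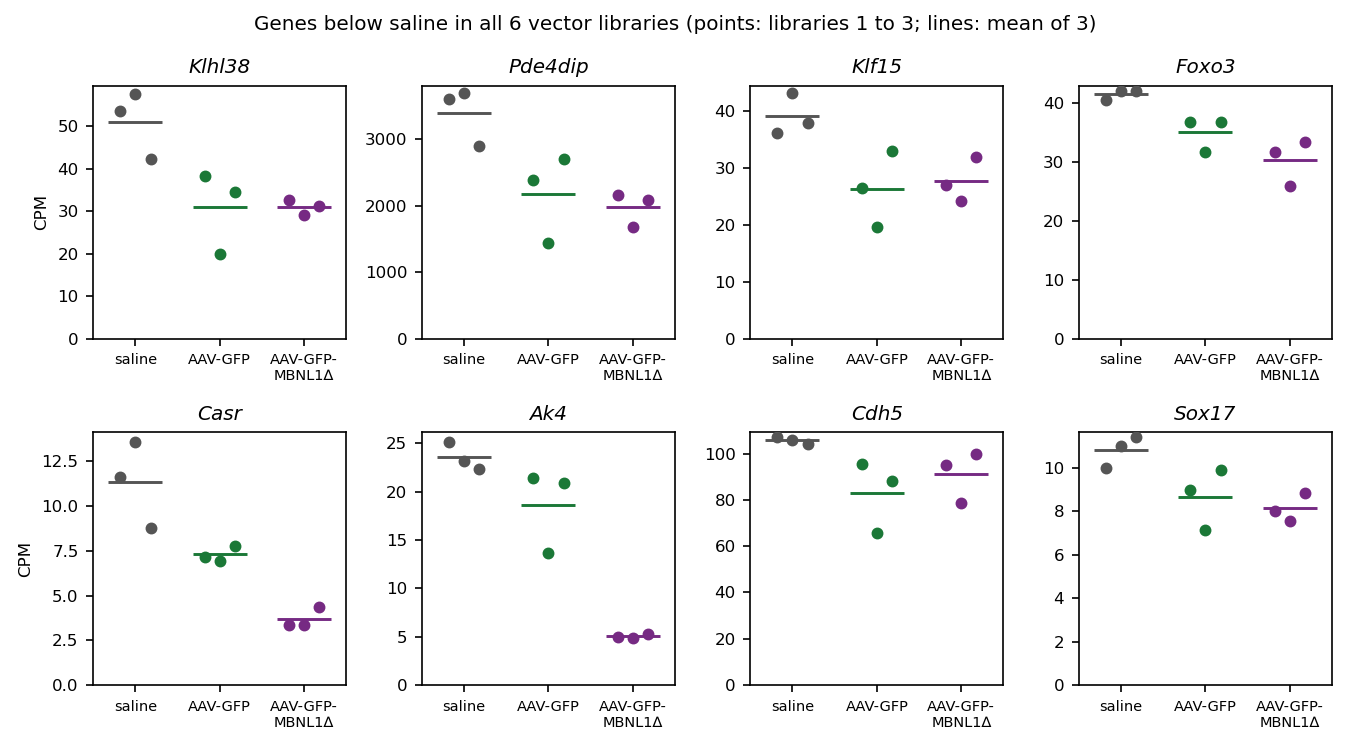
Level in CPM (linear axis from 0) of 8 genes whose vector libraries lie below saline, in saline, AAV-GFP and AAV-GFP-MBNL1∆, with points for libraries 1 to 3 and a line at the group mean. Klhl38, Pde4dip, Klf15, Foxo3, Cdh5 and Sox17 stand at like levels with both vectors, and Casr and Ak4 are lower in AAV-GFP-MBNL1∆.

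Muscle genes that stood lower with both vectors alike did not pass the test. Klhl38 (chr15:58314573-58324169), a muscle protein of the Kelch family, was at 53.5, 57.6 and 42.2 CPM in saline, 38.2, 20 and 34.4 in AAV-GFP and 32.6, 29.2 and 31.3 in AAV-GFP-MBNL1∆ (−0.72, SE 0.19, adjusted p = 0.108). The log2 fold changes were −0.73 and −0.72, and the difference between the vectors was 0.01 (adjusted p = 0.981). Pde4dip (chr3:97689824-97888707), myomegalin of the sarcomere and Golgi, was at 2898 to 3688 CPM in saline, 1435 to 2703 in AAV-GFP and 1678 to 2158 in AAV-GFP-MBNL1∆ (−0.71, SE 0.20, adjusted p = 0.12). DESeq2 called it (adjusted p = 0.00865). Of 21 atrophy genes 3 lay below saline in every vector library, namely the ubiquitin ligase Fbxo32 (−0.37, adjusted p = 0.151) and the transcription factors Foxo3 (−0.35, adjusted p = 0.104) and Klf15 (−0.53, adjusted p = 0.128), all of which promote muscle protein loss; edgeR called 0, with 3 at an unadjusted p under 0.05 against a background of 9.23%, DESeq2 called 2 and limma-voom 0. Klf15 was at 36.2 to 43.3 CPM in saline, 19.6 to 33.1 in AAV-GFP and 24.2 to 32 in AAV-GFP-MBNL1∆.

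Endothelial genes had the greatest share below saline of the 46 lists read. Of 20 tested, 6 stood lower in all 6 vector libraries (30%, against 3.82%) and 0 higher, namely Cdh5, the cadherin of endothelial junctions, the transcription factor Sox17, the receptors Tie1 and Robo4, the junction protein Esam and the secreted Egfl7. Cdh5 was at 104 to 107 CPM in saline, 65.5 to 95.6 in AAV-GFP and 78.5 to 100 in AAV-GFP-MBNL1∆ (−0.28, SE 0.12, adjusted p = 0.248). Sox17 was at 10 to 11.4, 7.13 to 9.87 and 7.55 to 8.82 CPM (−0.37, SE 0.11, adjusted p = 0.139). The gap to saline was small and AAV-GFP 2 was lowest in both. The list's median was −0.25 in AAV-GFP and −0.24 in AAV-GFP-MBNL1∆, against −0.01 and 0.02 over all autosomal genes, and its summed level was 781 to 837 CPM in saline, 568 to 750 in AAV-GFP and 592 to 715 in AAV-GFP-MBNL1∆. The 1 member called was Aplnr, the apelin receptor, at 21.5 to 26.9, 20.1 to 26.4 and 7.43 to 9.5 CPM, which overlapped between saline and AAV-GFP. Library by library its median relative to saline was −0.13, −0.55 and −0.08 in AAV-GFP and −0.24, −0.41 and −0.18 in AAV-GFP-MBNL1∆. DESeq2 called 1 member lower and limma-voom 1, and 6 had an unadjusted p under 0.05 in this direction. Smooth muscle and pericyte genes lay below in 2 of 12 (Abcc9 and Pdgfrb), with medians of −0.21 and −0.25.

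Stress genes and the host genes of AAV entry showed less. Of 19 heat shock chaperones 4 lay above saline (Dnaja1, Dnajb1, Hsp90aa1 and Hspb8), with Hsp90aa1, the inducible cytosolic HSP90, at 30.6 to 38.1 CPM in saline, 42.3 to 54.2 in AAV-GFP and 47.2 to 59.8 in AAV-GFP-MBNL1∆ (0.54, SE 0.12, adjusted p = 0.0788). Its log2 fold change was 0.46 in AAV-GFP and 0.62 in AAV-GFP-MBNL1∆, but the list's median was −0.05 and 0.35, and 10 of the 19 were called higher in AAV-GFP-MBNL1∆ than in AAV-GFP. Of 24 genes of the p53 response 3 lay above (Btg2, Pmaip1 and Sesn2) and 1, the membrane protein Perp, was called through AAV-GFP-MBNL1∆. Pmaip1, the killer protein NOXA that interferon also induces, was at 0.273 to 0.338, 0.553 to 4.36 and 0.584 to 0.797 CPM (adjusted p = 0.113). Genes used by AAV to enter and traffic lay above in 2 of 22 (Ctsb and Rpsa) and below in 1 (Pdgfrb), and the AAV receptor gene AU040320 stood at −0.00 on the log2 scale (adjusted p = 0.989).

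Genes of muscle fibre identity and metabolism gave little that both vectors shared. At the neuromuscular junction Chrna1, the acetylcholine receptor subunit that denervated fibres raise, was at 19.5 to 19.6 CPM in saline, 19.9 to 40.8 in AAV-GFP and 32.8 to 38.1 in AAV-GFP-MBNL1∆ (0.66, adjusted p = 0.161), so AAV-GFP 1 and 3 stood barely above saline. Myh4, the fast 2B myosin, was at 43775 to 67315, 26053 to 45235 and 44632 to 56808 CPM and overlapped (−0.38, adjusted p = 0.365). Slow fibre genes had medians of −0.09 in AAV-GFP and −0.70 in AAV-GFP-MBNL1∆, and fast fibre genes −0.34 and 0.18. Genes of the extracellular matrix lay above saline in 3 of 30 and below in 0, satellite cell genes above in 0 and below in 1 of 19, and genes of the unfolded protein response above in 2 of 26, where the medians were 0.55 in AAV-GFP and 0.05 in AAV-GFP-MBNL1∆. Lipid synthesis and adipocyte genes lay below in 1 of 25, and 12 of them were called lower in AAV-GFP-MBNL1∆ than in AAV-GFP. Glycolysis genes lay above in 0 and below in 0 of 28, genes of oxidative phosphorylation in 0 and 0 of 31, and slow fibre genes in 0 and 0 of 16. The 1 glycolysis gene called, the regulator Pfkfb3, was at 50 to 73.3 CPM in saline, 51 to 67.4 in AAV-GFP and 260 to 452 in AAV-GFP-MBNL1∆ (1.24, adjusted p = 0.0457).

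Which library was left out decided most calls, including those of the 6 immune genes. Against 54 higher and 45 lower with all libraries, there were 2 and 0 without saline 1, 1 and 0 without saline 2 and 7 and 15 without saline 3. There were 17 and 7 without AAV-GFP 1, and 24 and 12, 13 and 6, and 11 and 2 without AAV-GFP-MBNL1∆ 1, 2 and 3. Without AAV-GFP 2 the numbers grew to 561 and 507, and without AAV-GFP 3 to 1575 and 608. Cxcl10, Cd7, Ubash3a, Il12b, Gm4841 and F830016B08Rik each kept the call without AAV-GFP 2 or AAV-GFP 3 and lost it without any 1 of the other 7 libraries, and for Cxcl10 the adjusted p ranged from 0.00343 to 0.235. Smox, Ak4 and Sra1 lost the call without saline 1 or 2, Neu2 without saline 1, saline 2 or AAV-GFP-MBNL1∆ 3, and Odc1, Npnt and Perp without any 1 saline library. Trnp1 and C7 lost it without 5 and 4 of the libraries and Il15 without 5. Amd1, Amd2, Mgst1 and Casr lost it without 6, and Ighm, Bace1, Serpinb6a, Dnajb1, Pfkfb3, Col24a1, Mycn, Dgke and Aplnr without all but AAV-GFP 2 and 3.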

How the data were processed

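Total RNA of gastrocnemius was treated with DNase and made into libraries with the KAPA mRNA HyperPrep kit, per the labels' protocols. The authors deposited raw read counts per gene for each library. The submitters' processing notes name cutadapt 2.10, STAR 2.7.5a, HTSeq 0.12.4, DESeq2 1.30.0 and the build mm10, while the annotation release and strand setting were not given in the sources used here. Gene names and coordinates came from GENCODE M21 (GRCm38), which held 55141 of the 55401 identifiers. Rows that name no gene (16.8% to 18.3% of reads) were left out. Reads of the vectors themselves were not analysed here.

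The 9 libraries were fitted in 3 groups with edgeR 4.0.16 under R 4.3.3 (scaling by TMM, filterByExpr by group, robust quasi-likelihood F test with 6 residual degrees of freedom, Benjamini-Hochberg adjustment over 18514 genes). The tested value is the mean of both vector groups on the log2 scale minus saline, and a gene is called at an adjusted p under 0.05. CPM are TMM-scaled, and log2 CPM use a prior count of 0.5. DESeq2 1.42.0 and limma 3.58.1, other scalings and filters, a test against a log2 fold change of 0.58 and leaving out each library were alternatives. Replicates of each group differed by more than sampling noise. In data simulated for this comparison, 60% of 2-fold changes (18277 genes) and 96% of 4-fold changes (18271 genes) were recovered at 200 changed genes. The simulated spread followed the trend for a gene's level, and changes were equal in both vectors. These shares therefore do not hold for genes that spread more widely, as many immune genes did.

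The comparison, its members and the 46 gene lists (965 symbols, 895 of them tested) were chosen with earlier results of these data known. Named genes follow a rule: up to 12 called, protein-coding, non-overlapping genes of at least 1 CPM per direction with the greatest smaller change of the 2 vectors, or the 10 of smallest p where fewer qualify, up to 3 genes per list by p, and up to 6 per direction that differ most between the vectors, with Mbnl1 and sex-linked genes. Cd7, Il12b, Gm4841, F830016B08Rik, Klhl38, Pde4dip and the other genes outside the rule were chosen after their values were seen. Promoter windows are RefSeq's (GRCm38.p6, 32851 windows of 27025 genes).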

Additional observations from a re-analysis of the deposited data

Results flagged for a closer look

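The genes called in either vector against saline were singled out where the vectors themselves differed by edgeR's quasi-likelihood test, which was so for 98 of the 99. The differences of AAV-GFP-MBNL1∆ minus AAV-GFP on the log2 scale were 8.17 for Trnp1, 7.29 for Themis3, 6.37 for Slc15a5, 4.40 for C7, 3.96 for the zinc transporter Slc30a2 and 3.85 for Actr3b. In the other direction they were −3.54 for Klhdc7a, −3.10 for the lipid droplet protein Pnpla3, −2.81 for the myosin-binding Mybph, −2.05 for Aldh1a7, −1.88 for Ak4 and −1.88 for Lrrc55. In all 12 the AAV-GFP value lay closer to saline. Vector and sex-linked expression cannot be told apart in these differences.

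Sex-linked genes lie outside the autosomal comparison and differ with the groups. The highest AAV-GFP-MBNL1∆ library held 0.0902 CPM of Xist, against 105 to 136 CPM in the other 6 libraries. Y-linked Ddx3y was at 82.7 to 84.6 CPM in AAV-GFP-MBNL1∆ and at 0.409 to 0.693 CPM in saline, and AAV-GFP 1 stood at 2.58 CPM, where Eif2s3y was at 1.11 CPM. The source of these reads in AAV-GFP 1 was not tested.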

How the results depend on the processing

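Against 54 genes higher, 45 lower and 98 also different between the vectors, DESeq2 gave 1188, 531 and 1142, and limma-voom with library weights, which gave AAV-GFP 2 a weight of 0.122, gave 2506, 1997 and 2951. A test against a minimum change left 4, 0 and 4. With 1 mean for all 6 vector libraries there were 0 and 0 (1373 and 946 at an unadjusted p under 0.05, and 0 also different), and with the larger p of the 2 vectors 0 and 0 (366 and 274, and 0 also different). Leaving out 1 library at a time gave 1 to 1575 higher, 0 to 608 lower, 1 to 1554 also different, 984 to 1780 above saline and 758 to 1603 below, and a log2 fold change of −0.16 to 0.04 for Mbnl1, the only named gene whose sign turned. These counts under the other scalings and filters stayed within 1.5 times. No scaling moved the median over all genes by more than 0.1. Libraries of equal replicate number had correlations of −0.11 to 0.06 between saline and a vector group. Between the vector groups these were 0.09, 0.17 and 0.42 for replicates 1, 2 and 3, which does not settle whether the numbers pair them. A fit with the replicate number as a block gave 108 higher and 51 lower, of which 77 were among the 99. With 3 libraries a group, simulated 2-fold changes were often missed. Far larger changes missed the edgeR threshold where libraries spread widely, as for Cxcl9 (7.32 on the log2 scale, adjusted p = 0.0533) and Jchain (8.42, adjusted p = 0.0875). A count of 0 in saline limits only what this depth could show.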
